A study of Homo sapiens with 20 samples.

Results

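The 33 genes examined here make cholesterol and fatty acids, sense sterols, or move them, and were given as a list of symbols. On the exon arrays, 32 of the 33 matched a row of the deposited values through the platform's gene symbols, out of 18384 features tested. FDFT1 was not analysed here. Of several rows of a gene, the brightest on average was used, which concerned 5 of the 32. The 32 fall into 7 enzymes of the mevalonate arm, 10 enzymes that turn squalene into cholesterol, 5 genes of sterol sensing, 5 of sterol transport and receptor turnover, and 5 of fatty acid synthesis. The first 17 are called the sterol enzymes below. ACAT2, CYP51A1, HSD17B7 and SREBF2 lie on rows that carry a further symbol, so their signal may include another transcript.

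Cells make cholesterol from acetyl-CoA, first by the mevalonate pathway to squalene and then through a chain of ring-forming, demethylating and reducing enzymes. SREBP transcription factors, held in the endoplasmic reticulum by the SCAP escort and the INSIG anchors while sterol is plentiful, move to the Golgi when sterol falls short, are cut there, and switch on nearly all of these enzymes together with the fatty acid enzymes. Cholesterol made or taken up is carried by STARD4 and NPC1 and exported by ABC transporters, which liver X receptors induce.

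The cells were WM793, an established line from a vertical growth phase melanoma (Parent), and 4 lines derived from it that overexpress NME1, a metastasis suppressor with nucleoside diphosphate kinase activity. The added NME1 was either wild-type (NME1-wild-type) or carried 1 of 3 substitutions (NME1-E5A, NME1-K12Q and NME1-P96S). All 5 lines were grown for 3 days in Tu2% medium, with no further treatment named, and 4 Affymetrix exon arrays were run for each line, 20 in all. There is 1 line for each construct, and its 4 arrays are technical replicates according to the design text. A p-value therefore speaks only of the spread between arrays, not of the spread between lines made with 1 construct. The promoter that drives the constructs and how the lines were selected are not given in the sources used here, and no empty-vector line is among the groups.

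Values are RMA-normalised log2 expression. Array medians ran from 6.27 to 6.50 and the interquartile range of an array from 2.19 to 3.16, with Parent replicate 2 at 2.19, NME1-P96S replicate 3 at 2.33 and NME1-K12Q replicate 2 at 2.46 the narrowest. Of the melanocyte lineage markers, 9 of 10 were measured. SOX10 had a mean of 9.38 and S100B of 8.61, whereas MITF (5.69), PMEL (4.71), TYRP1 (4.17), TYR (3.75) and MLANA (3.69) lay below the array medians. The mean of the marker list ran from 5.51 to 6.17 per array for fibroblasts, from 3.77 to 4.79 for leukocytes, from 4.48 to 5.58 for endothelium and from 4.84 to 5.90 for keratinocytes. The row of NME1, shared with the NME1-NME2 readthrough transcript, averaged 9.53 in Parent, 9.81 in NME1-wild-type and 9.75 to 9.78 in the lines with a substitution, and did not pass the test in any comparison with Parent.

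A gene counts as changed at an adjusted p under 0.05 (limma, Benjamini-Hochberg over the 18384 features within a comparison) together with a difference of at least 1.5-fold, which is 0.58 on the log2 scale. All 10 pairs of lines were compared, and comparisons with a line in common share its arrays. Of the 32 genes, 1 changed. It was INSIG2, higher in NME1-E5A than in Parent, where 0.218% of all features passed in either direction. In the test of any difference among the 5 lines, 1 of 32 passed, against 0.555% of all features. Each array measures the RNA of a whole culture, so a lower level in every cell and fewer cells at a high level cannot be told apart.

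The upstream sequences of the genes with the smallest adjusted p in any comparison are given first, because SREBP, the trimeric factor NF-Y and the hypoxia-inducible factors act through short sequences near the starts of such genes. The windows are the 250 bases before the outermost RefSeq start of each gene (GRCh38.p14), printed 5′ to 3′ on the gene's strand. Capitals mark matches on either strand to TCACCCC, a core of the sterol regulatory element, to CCAAT, the NF-Y box (ATTGG when it lies on the other strand), or to ACGTG, the core of the hypoxia response element (CACGT on the other strand). The palindromic E-box CACGTG, which contains ACGTG, was also searched. INSIG2 (chr2:118088221-118088470, plus strand) encodes an anchor that holds SCAP and SREBP in the endoplasmic reticulum. DHCR7 (chr11:71449044-71449293, minus strand) makes cholesterol from its immediate dehydro precursor. TM7SF2 (chr11:65111622-65111871, plus strand) is a sterol reductase acting after CYP51A1. HMGCS1 (chr5:43313413-43313662, minus strand) condenses acetoacetyl-CoA with acetyl-CoA and MVK (chr12:109573544-109573793, plus strand) phosphorylates mevalonate. They are shown as the mevalonate enzymes with the largest F values.
INSIG2: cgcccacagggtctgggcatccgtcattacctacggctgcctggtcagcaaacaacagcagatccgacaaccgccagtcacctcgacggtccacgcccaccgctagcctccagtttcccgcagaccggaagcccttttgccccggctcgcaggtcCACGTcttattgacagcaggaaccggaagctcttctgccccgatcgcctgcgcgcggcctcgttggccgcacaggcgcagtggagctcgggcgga
DHCR7: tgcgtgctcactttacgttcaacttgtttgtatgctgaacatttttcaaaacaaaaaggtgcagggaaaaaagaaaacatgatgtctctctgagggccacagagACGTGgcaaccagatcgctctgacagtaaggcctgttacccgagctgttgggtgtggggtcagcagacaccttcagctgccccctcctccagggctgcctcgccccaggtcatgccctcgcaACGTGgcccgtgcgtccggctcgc
TM7SF2: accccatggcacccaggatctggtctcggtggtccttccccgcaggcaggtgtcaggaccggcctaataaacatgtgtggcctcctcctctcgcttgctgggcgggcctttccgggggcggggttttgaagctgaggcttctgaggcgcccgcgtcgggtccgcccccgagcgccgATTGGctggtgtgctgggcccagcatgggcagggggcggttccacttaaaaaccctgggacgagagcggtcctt
HMGCS1: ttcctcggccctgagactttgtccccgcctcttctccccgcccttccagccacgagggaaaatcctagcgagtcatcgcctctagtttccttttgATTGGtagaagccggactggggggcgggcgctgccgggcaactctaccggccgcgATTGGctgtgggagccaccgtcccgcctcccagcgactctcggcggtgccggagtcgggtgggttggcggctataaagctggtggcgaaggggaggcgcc
MVK: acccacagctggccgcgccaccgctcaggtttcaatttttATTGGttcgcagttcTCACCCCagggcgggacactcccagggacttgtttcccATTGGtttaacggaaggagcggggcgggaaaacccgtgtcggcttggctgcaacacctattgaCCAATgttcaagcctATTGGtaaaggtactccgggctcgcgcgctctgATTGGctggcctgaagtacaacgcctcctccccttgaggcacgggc

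The INSIG2 window held 1 ACGTG match, 95 bases before the start, and none of the other motifs. DHCR7 held 2 ACGTG matches, 146 and 24 bases before its start, and no CCAAT. TM7SF2 had a single CCAAT 74 bases upstream and HMGCS1 had CCAAT at 155 and 100 bases. MVK carried 5 CCAAT matches and, at 195 bases, the TCACCCC core, and it was the 1 sterol enzyme of 15 with a window that held that core. Windows were given for 28 of the 32 genes. CCAAT was found in 11 of the 15 sterol enzymes (73.3%) and in 17 of the 28 genes (60.7%), against 33% of 27305 RefSeq promoters of the same length. TCACCCC was in 2 of 28 (7.14%) against 4.54%, ACGTG in 8 of 28 (28.6%) against 18.6%, and CACGTG in 4 of 28 (14.3%) against 6.46%. These are matches of letters and not measured binding. Only the outermost start of each gene was searched, and the start used in these cells was not measured. A motif absent from a window may therefore lie near another start.

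INSIG2, in the sterol sensing group, showed the largest range of line means among the 32 genes. Its levels were 7.02, 6.90, 7.18 and 7.69 on the 4 Parent arrays and 8.48, 8.09, 8.34 and 8.11 on the NME1-E5A arrays. NME1-wild-type had 7.64, 6.98, 7.35 and 7.52, NME1-K12Q 7.64, 6.98, 7.18 and 7.58, and NME1-P96S 7.77, 7.50, 7.08 and 7.32. Every NME1-E5A array lay above all 16 arrays of the other lines, while those 4 lines overlapped one another. NME1-E5A exceeded Parent by 1.06 on the log2 scale (SE 0.197, 95% interval 0.65 to 1.47), or 2.08-fold, from 7.20 ± 0.350 to 8.25 ± 0.188 (SD, n = 4, limma adjusted p = 0.0195). The moderated F over the 5 lines was 9.13 (limma adjusted p = 0.0416). Against the other NME1 lines the arrays did not overlap either, but the adjusted p missed the threshold. The difference was 0.84 against NME1-P96S (limma adjusted p = 0.0957) and 0.91 against NME1-K12Q (0.0751), and NME1-wild-type minus NME1-E5A was -0.88 (0.0957). All 3 passed with quantile normalisation, with the interquartile range as a covariate, and with replicate number as a block. None of the 3 passed with arrays centred on their medians, with every row tested, or with the dimmest features left out. With only the 8 arrays of a pair, NME1-E5A passed against NME1-wild-type and NME1-K12Q but not against NME1-P96S. The call against Parent was lost when any 1 of 5 arrays was left out (replicates 1, 2 and 3 of Parent, replicates 1 and 3 of NME1-E5A), with differences of 0.96 to 1.05 and limma adjusted p-values of 0.0765 to 0.0969. It was also lost when only the 8 arrays of the pair were fitted (limma adjusted p = 0.109). The INSIG2 call in the F test was lost with arrays centred on their medians. That call was also lost without some single arrays, among them Parent replicates 1, 2 and 3 and each NME1-E5A array.

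Other genes also differed between NME1-E5A and Parent. A list of hypoxia response genes was examined, chosen with earlier results of these data known. Of its 24 measured genes, 5 were higher and none lower in NME1-E5A than in Parent after the same test. Over all features 0.141% were higher. LDHA and NDRG1, the 2 of highest mean, were not among the 5, at differences of 0.32 and 0.36. The median difference of the 24 was 0.60. NME1-E5A had the highest line mean for 23 of the 24, against 14.1% of all features and 19.9% of features with a mean of 7 or more. PDK1, which restrains entry of pyruvate into the mitochondrion, is 1 of those 5 and exceeded Parent by 1.32 (limma adjusted p = 0.00586). Their part in the INSIG2 difference was not tested.

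INSIG1, the paralogue of INSIG2 that SREBP itself switches on when sterol is short, did not pass in any comparison. Its 4 NME1-E5A arrays read 10.01, 9.76, 9.84 and 9.31, within the range of the Parent arrays at 9.94, 9.75, 10.12 and 9.89 but for the lowest. NME1-wild-type had 10.00, 9.88, 9.91 and 9.48, NME1-K12Q 9.88, 9.59, 9.89 and 9.53, and NME1-P96S 10.27, 10.16, 9.89 and 9.71. The replicate 4 array was the lowest of its line in all 4 NME1 lines. The INSIG1 line means spanned 0.28, from 9.72 in NME1-K12Q to 10.01 in NME1-P96S, the line that was also highest for most sterol enzymes. SREBF2, which encodes the SREBP that drives sterol synthesis, had 8.76, 8.86, 8.98 and 9.06 in Parent and 8.84, 9.29, 9.12 and 9.36 in NME1-P96S. NME1-wild-type read 8.49, 8.64, 8.94 and 9.11, NME1-E5A 8.62, 9.08, 9.05 and 9.21, and NME1-K12Q 8.64, 9.06, 9.04 and 9.15. In all 5 lines replicate 1 was the lowest and replicate 4 the highest SREBF2 array, and NME1-P96S minus Parent was 0.24 (limma adjusted p = 0.85). SCAP, the escort, had line means between 8.04 and 8.09, and SREBF1, whose products drive the fatty acid genes, between 8.45 and 8.67, highest in NME1-E5A.

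**Figure D1:**
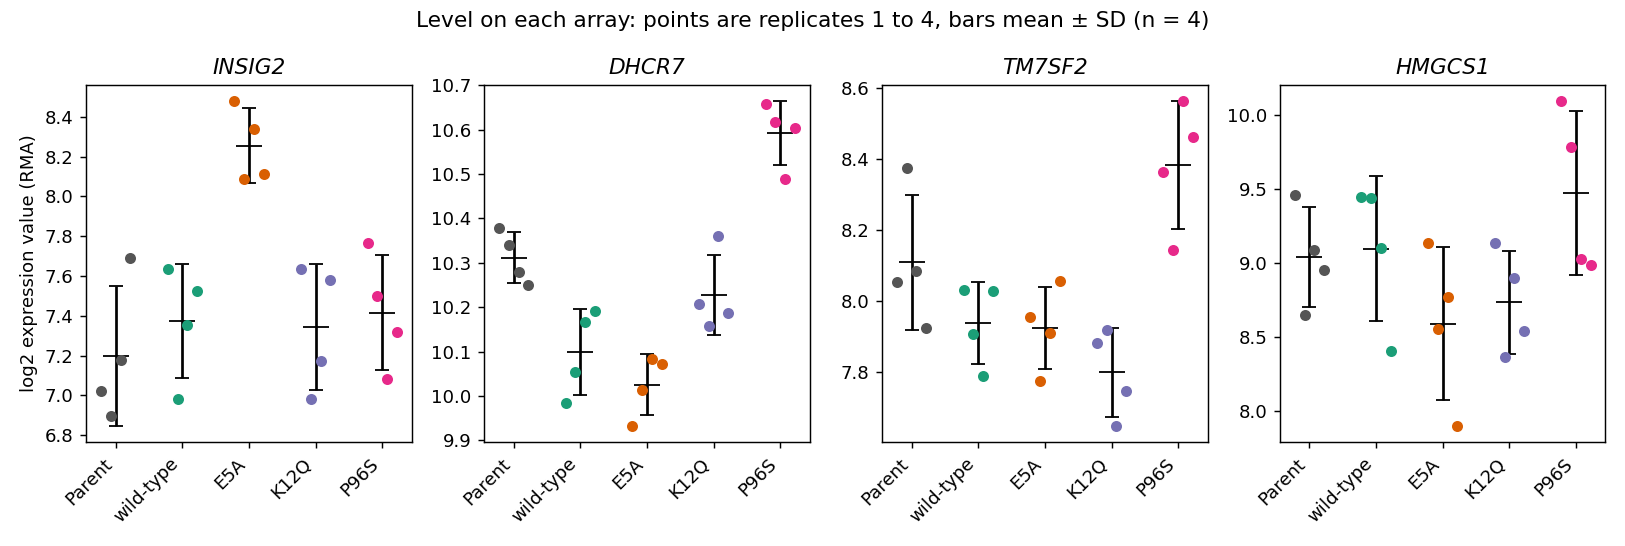
Log2 expression value (RMA) of INSIG2, DHCR7, TM7SF2 and HMGCS1 on each of the 4 arrays of a line, with points in order of replicate number and bars for mean ± SD (n = 4). INSIG2 stands apart in NME1-E5A at 8.09 to 8.48, DHCR7 in NME1-P96S at 10.49 to 10.66, and HMGCS1 arrays spread widely within every line.

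Among the 17 sterol enzymes, 0 changed in any of the 10 comparisons (limma), but the same line stood highest for most of them. NME1-P96S had the highest line mean for 15 of the 17, which were all 10 enzymes from squalene to cholesterol and 5 of the 7 mevalonate enzymes. NME1-E5A had the lowest line mean for 11 of the 17. The enzymes are read from the same arrays, and SREBP switches on nearly all of them together. Counts of enzymes, here and below, are therefore not separate evidence. Over all 32 genes NME1-P96S was highest for 22 and NME1-E5A lowest for 13, against 17.8% and 16.3% of all features. Since these genes are bright, with a median level of 8.42 against 6.36 for all features, the same share was taken over the 6919 features with a mean of 7 or more, and NME1-P96S was highest for 22.4% of those. The exceptions among the enzymes were ACAT2, the cytosolic thiolase, and PMVK, which phosphorylates mevalonate further, and both were highest in NME1-wild-type.

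**Figure D2:**
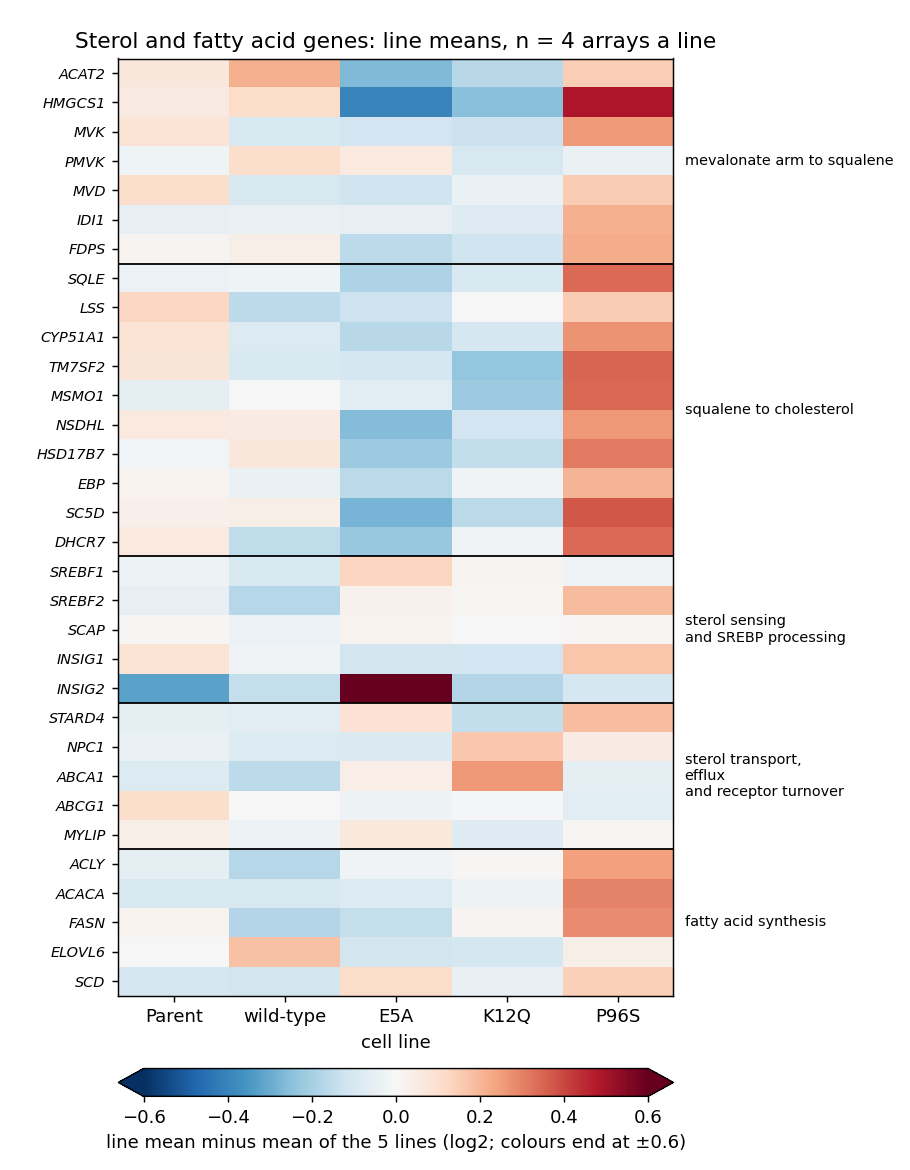
Line mean minus the mean of the 5 lines (log2) for the 32 genes, grouped by role, n = 4 arrays a line. The column of NME1-P96S holds the highest line mean for 15 of the 17 sterol enzymes, and INSIG2 is the dark cell of NME1-E5A.

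Set against Parent, the sterol enzymes of NME1-P96S had a median log2 difference of 0.21, with 16 of 17 positive. Over all features 38.3% were positive and the median was -0.06. Of the 6919 features with a mean of 7 or more, 4095 were positive and the median was 0.04. The whole set of 32 had a median of 0.20, 4 members had an unadjusted p under 0.05 (3.14% of all features) and 0 changed (0.103% of all features). NME1-E5A and NME1-K12Q lay on the other side of Parent. The median over the enzymes was -0.20 in NME1-E5A, with 16 of 17 negative against 60.8% of all features. It was -0.14 in NME1-K12Q, with 17 of 17 negative against 63.7%. Of the 6919 features with a mean of 7 or more, 2598 were negative in NME1-E5A and 3047 in NME1-K12Q. Of the 32 genes, 0 changed in NME1-K12Q (0.00544% of all features) and 2 had an unadjusted p under 0.05 (1.48%). In NME1-E5A 3 had an unadjusted p under 0.05 (2.98%), among them INSIG2. NME1-wild-type was close to Parent, with a median over the enzymes of 0.00 and 9 of 17 positive against 41.1% of all features. Of the 6919 features with a mean of 7 or more, 4546 were positive in NME1-wild-type, with a median of 0.05. There 0 of the 32 changed (0.0326% of all features) and 2 had an unadjusted p under 0.05 (1.38%).

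Arrays that did not overlap those of Parent were few. All 4 arrays lay below Parent for 2 of the 32 genes in NME1-E5A (MVK and DHCR7, 0.914% of all features), for 2 in NME1-K12Q (MVK and TM7SF2, 0.587%) and for 1 in NME1-wild-type (DHCR7, 0.473%). They lay above Parent for 1 in NME1-E5A (INSIG2, 1.07%), 1 in NME1-K12Q (ABCA1, 0.587%) and 2 in NME1-P96S (DHCR7 and ACLY, 0.566%).

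The widest contrast was between NME1-E5A and NME1-P96S. The enzymes had a median difference of -0.41 (NME1-E5A minus NME1-P96S), 16 of 17 were negative against 41.3% of all features, and the arrays of 6 of the 17 did not overlap, all lower in NME1-E5A, against 1.31% of all features. Of the 32 genes, 15 had an unadjusted p under 0.05 (4.11% of all features) and 0 changed (0.239%). That count of 0, with 44 of all features called, differed between settings, and the cause was not tested. Without NME1-P96S replicate 3 it was 2 (HSD17B7 and DHCR7, with 86 of all features), without the 3 arrays of narrowest spread 6 (with 204), and with limma's array weights 9 (with 551), of which 8 were sterol enzymes and the other was INSIG2. NME1-K12Q minus NME1-P96S gave a median of -0.37 over the enzymes, all 17 negative against 44% of all features, and 5 without overlap against 1.01%. Of the 32, 12 had an unadjusted p under 0.05 (3.12%) and 0 changed (0.277%). NME1-wild-type minus NME1-P96S had a median of -0.31 with 15 of 17 negative against 38.7% of all features, and 4 without overlap against 0.914%. There 10 of the 32 had an unadjusted p under 0.05 (3.39%) and 0 changed (0.201%). Among the 6919 features with a mean of 7 or more, 3259 were negative in NME1-E5A minus NME1-P96S. For NME1-K12Q and NME1-wild-type minus NME1-P96S these counts were 3762 and 3087. The 3 comparisons share the NME1-P96S arrays and are not separate evidence. Between the other NME1 lines 0 of the 32 changed. NME1-wild-type minus NME1-E5A had 2 with an unadjusted p under 0.05 (2.4% of all features, 0.207% called), NME1-wild-type minus NME1-K12Q 1 (1.29%, 0.0381% called) and NME1-E5A minus NME1-K12Q 2 (2.79%, 0.169% called).

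**Figure D3:**
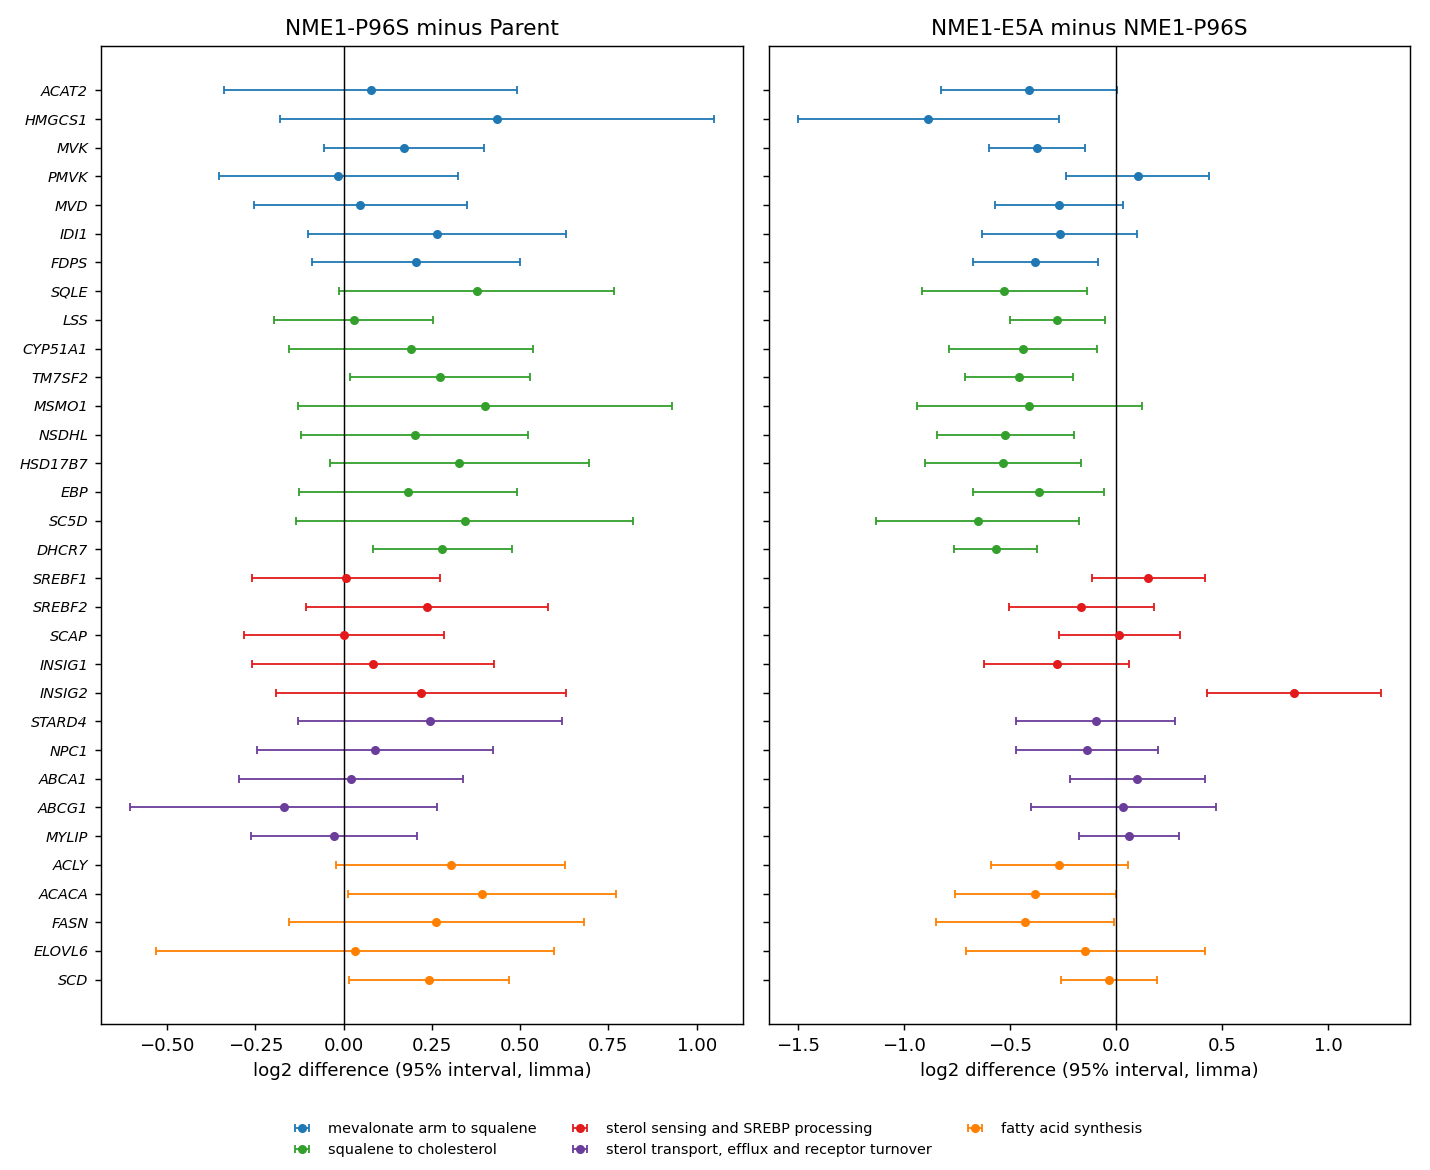
Log2 difference with its 95% interval (limma) for each of the 32 genes, coloured by role, for NME1-P96S minus Parent and for NME1-E5A minus NME1-P96S. Most points lie right of 0 in the first and left of 0 in the second, where INSIG2 is the exception at 0.84, and many intervals include 0.

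The mean over the 17 enzymes was 9.05, 8.93, 8.66 and 8.77 on the NME1-P96S arrays and 8.66, 8.47, 8.65 and 8.73 on the Parent arrays. NME1-wild-type read 8.72, 8.59, 8.54 and 8.49, NME1-E5A 8.56, 8.35, 8.51 and 8.29, and NME1-K12Q 8.56, 8.34, 8.53 and 8.48. NME1-P96S thus lay wholly above NME1-E5A and NME1-K12Q and overlapped Parent and NME1-wild-type. Replicates 1 and 2 of NME1-P96S are the arrays of widest spread, with interquartile ranges of 3.12 and 3.16, and carry its highest enzyme means. Replicate 3, of narrow spread, was the lowest of the 4 NME1-P96S arrays for 10 of the 17 enzymes. With the interquartile range as a covariate NME1-P96S was highest for 15 of 17 enzymes, without replicate 3 for 15, and without the 3 arrays of narrowest spread for 16. It was highest for 14 with quantile normalisation, 14 without Parent replicate 3 and 13 without Parent replicate 4. The part of array spread in the size of the difference was not otherwise tested.

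**Figure D4:**
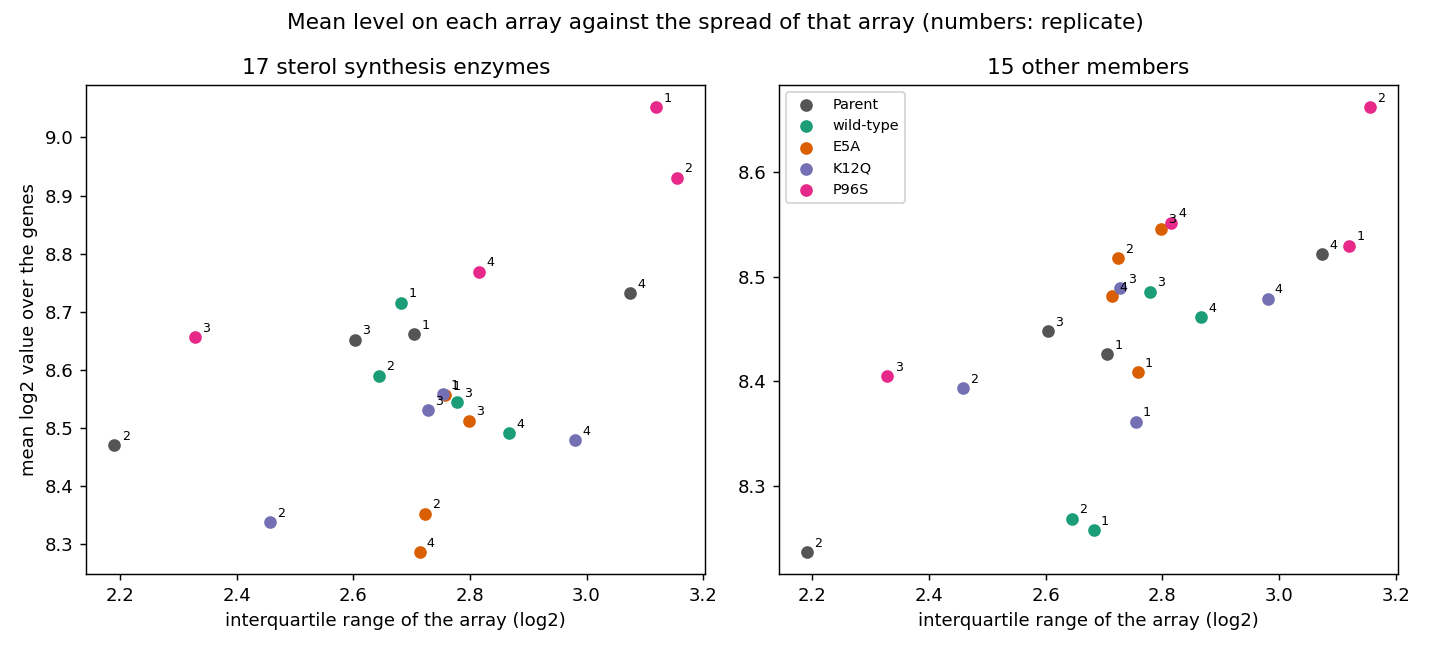
Mean log2 value on each array over the 17 sterol enzymes (left) and the 15 other genes (right) against the interquartile range of that array, numbered by replicate. For the enzymes the NME1-P96S arrays lie at 8.66 to 9.05 and the NME1-E5A arrays at 8.29 to 8.56.

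DHCR7, the final reductase of the pathway, had the largest moderated F of the 32 genes (11.1). The NME1-P96S arrays read 10.66, 10.62, 10.49 and 10.60 and the Parent arrays 10.38, 10.34, 10.28 and 10.25. NME1-wild-type read 9.99, 10.06, 10.17 and 10.19, NME1-E5A 9.93, 10.01, 10.08 and 10.07, and NME1-K12Q 10.21, 10.16, 10.36 and 10.19. All NME1-P96S arrays lay above all other arrays, and all NME1-wild-type and NME1-E5A arrays lay below all Parent arrays. NME1-E5A minus NME1-P96S was -0.57 (SE 0.0937, 95% interval -0.76 to -0.37, limma adjusted p = 0.00515), which at 1.48-fold stayed just under the 1.5-fold minimum. NME1-wild-type minus NME1-P96S was -0.49 (limma adjusted p = 0.0266). The first kept an adjusted p under 0.05 in all 20 fits without 1 array, whereas the second was over it in 6 of 20, with values up to 0.0355 and 0.153. With only the 8 arrays of a pair they were 0.255 and 0.934, and with median centring the second was 0.0536 (limma). DHCR7 was the 1 gene of the 32 with an adjusted p under 0.05 in each of these comparisons, against 0.261% and 0.223% of all features. Against Parent neither side passed, with 0.28 for NME1-P96S (limma adjusted p = 0.85) and -0.29 for NME1-E5A (0.687). With array weights, where 1639 of all features were called, NME1-P96S minus Parent was 0.33 (limma adjusted p = 0.0184), still under 1.5-fold. The F test gave an adjusted p of 0.0198 (limma), so with no minimum fold 2 of the 32 passed it, against 0.582% of all features.

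For TM7SF2 the NME1-P96S arrays gave 8.36, 8.14, 8.56 and 8.46 and the NME1-K12Q arrays 7.88, 7.92, 7.65 and 7.75. Parent lay between at 8.05, 8.37, 8.08 and 7.93, with NME1-wild-type at 8.03, 7.91, 7.79 and 8.03 and NME1-E5A at 7.95, 7.78, 7.91 and 8.06. The NME1-P96S arrays lay above those of every other NME1 line but overlapped Parent. NME1-K12Q minus NME1-P96S was -0.58 (SE 0.122, limma adjusted p = 0.0415), again just under 1.5-fold, and TM7SF2 was the 1 gene of the 32 below 0.05 there, against 0.343% of all features. This adjusted p depended on the setting. It was 0.0117 with each array centred on its median, where the difference of -0.59 passed, but 0.189 with quantile normalisation, 0.0533 with replicate number as a block and 0.536 with only the 8 arrays of the pair (limma). It was over 0.05 in 17 of the 20 fits that left out 1 array, at most 0.191 (limma adjusted p). Between NME1-K12Q and Parent the arrays did not overlap, by a very narrow margin, at a difference of -0.31 (limma adjusted p = 1).

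CYP51A1, the lanosterol demethylase, read 10.01, 10.21, 9.84 and 10.04 in NME1-P96S. The NME1-K12Q arrays, at 9.68, 9.36, 9.78 and 9.80, did not overlap these. Parent had 9.80, 9.43, 9.86 and 10.25, NME1-wild-type 9.67, 9.33, 9.87 and 9.83, and NME1-E5A 9.44, 9.59, 9.86 and 9.46. NME1-K12Q minus NME1-P96S was -0.37 (95% interval -0.72 to -0.03, limma adjusted p = 1). Of the other 7 enzymes of this arm, SQLE, the squalene epoxidase, had a line mean of 10.07 in NME1-P96S and 9.55 in NME1-E5A. LSS, which closes the rings, had 9.50 and 9.22, and the demethylation enzymes MSMO1, NSDHL and HSD17B7 had 10.04 and 9.63, 8.24 and 7.72, and 6.10 and 5.57. EBP, the isomerase, had 9.72 and 9.36, and SC5D, the desaturase before DHCR7, had 7.45 and 6.80. With all 20 arrays weighed equally none of these 7 passed in any comparison, and their differences between NME1-E5A and NME1-P96S ran from -0.65 to -0.28. HSD17B7 has a second row, shared with its pseudogene and other symbols, which also had its highest line mean in NME1-P96S (5.97, against 5.30 to 5.63 in the other lines).

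HMGCS1 showed the largest enzyme difference and the largest scatter. Its NME1-P96S arrays read 10.10, 9.79, 9.02 and 8.99, and its NME1-E5A arrays 9.13, 8.56, 8.77 and 7.90. Parent had 9.46, 8.65, 9.09 and 8.96, NME1-wild-type 9.44, 9.44, 9.10 and 8.41, and NME1-K12Q 9.14, 8.36, 8.90 and 8.54. All lines overlapped, and within a line the 4 technical replicates differed by up to 1.24. NME1-E5A minus NME1-P96S was -0.88 (SE 0.294, 95% interval -1.50 to -0.27, limma adjusted p = 0.544). With array weights, where 551 of all features were called, the difference was -1.17 and passed (limma adjusted p = 0.00788). Replicate 1 was the highest HMGCS1 array in all 5 lines, as it was for IDI1, which isomerises isopentenyl diphosphate, while 602 of the 18384 features had replicate 1 highest in all 5 lines. What the replicate numbers share is not given in the sources used here, and the part of it in these values was not tested beyond the fit with replicate number as a block.

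MVK varied less. NME1-P96S had 7.66, 7.85, 7.82 and 7.77 and Parent 7.60, 7.61, 7.52 and 7.67. NME1-wild-type read 7.39, 7.17, 7.49 and 7.66, NME1-E5A 7.46, 7.29, 7.47 and 7.39, and NME1-K12Q 7.25, 7.50, 7.39 and 7.42. The NME1-P96S arrays lay above those of the other 3 NME1 lines, very narrowly so against NME1-wild-type. All NME1-E5A and NME1-K12Q arrays lay below all Parent arrays, narrowly so for NME1-K12Q. NME1-K12Q minus NME1-P96S was -0.38 (SE 0.108, limma adjusted p = 0.269) and NME1-E5A minus NME1-P96S -0.37 (0.312). FDPS, the farnesyl diphosphate synthase, read 10.69, 10.51, 10.16 and 10.45 in NME1-P96S and 10.07, 10.09, 10.30 and 10.53 in Parent. NME1-wild-type had 10.38, 10.51, 10.06 and 10.09, NME1-E5A 10.21, 9.97, 10.10 and 10.01, and NME1-K12Q 10.23, 9.90, 10.09 and 10.21, all overlapping. MVD, the decarboxylase, had line means from 7.60 in NME1-E5A to 7.87 in NME1-P96S, IDI1 from 7.97 to 8.26, ACAT2 from 8.69 to 9.16 and PMVK from 7.39 to 7.60. The second rows of IDI1 and FDPS, at means of 4.14 and 5.51, were highest in Parent.

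The fatty acid genes also leaned to NME1-P96S, which had the highest line mean for 4 of the 5, although 0 of them changed. ACLY, which splits citrate into acetyl-CoA, read 10.90, 11.21, 10.91 and 11.09 in NME1-P96S and 10.86, 10.42, 10.78 and 10.82 in Parent. NME1-wild-type had 10.33, 10.35, 10.87 and 10.89, NME1-E5A 10.45, 10.84, 10.86 and 10.88, and NME1-K12Q 10.53, 10.86, 10.85 and 10.90. All NME1-P96S arrays lay above all other arrays, but narrowly in each case. The lowest read 10.898, against highest arrays of 10.896 in NME1-K12Q, 10.885 in NME1-wild-type, 10.881 in NME1-E5A and 10.860 in Parent. The difference from Parent was 0.30 (95% interval -0.02 to 0.63, limma adjusted p = 0.85).

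SCD, the stearoyl-CoA desaturase, read 11.83, 11.87, 11.65 and 11.74 in NME1-P96S, and the NME1-E5A arrays had 11.62, 11.74, 11.85 and 11.74. Parent had 11.70, 11.38, 11.49 and 11.54, NME1-wild-type 11.36, 11.44, 11.66 and 11.61, and NME1-K12Q 11.53, 11.51, 11.75 and 11.56. For SCD the means of NME1-E5A and NME1-P96S were 11.74 and 11.77, a difference of -0.03 (95% interval -0.25 to 0.19). FASN, the fatty acid synthase, had line means of 10.37 in NME1-P96S and 9.91 to 10.11 elsewhere, and ACACA, which makes malonyl-CoA, 7.99 and 7.60 to 7.66. ELOVL6, an elongase, was highest in NME1-wild-type at 7.62 ± 0.115, within the spread of NME1-P96S at 7.48 ± 0.641 (SD, n = 4).

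As a group, the 5 genes of sterol transport and receptor turnover did not share the order of the enzymes. NME1-P96S had the highest line mean for 1 of the 5, STARD4. STARD4, a carrier of cholesterol in the cytosol, read 9.48, 9.65, 9.10 and 9.31 in NME1-P96S, 9.17, 8.47, 9.43 and 9.48 in Parent and 9.38, 9.26, 9.41 and 9.10 in NME1-E5A. NME1-wild-type had 9.16, 8.99, 9.24 and 9.15 and NME1-K12Q 9.02, 8.79, 9.23 and 9.15. All lines overlapped Parent, whose replicate 2 was the lowest array. The STARD4 line means ran from 9.05 in NME1-K12Q to 9.38 in NME1-P96S, the line that was also highest for most enzymes. NPC1, which moves cholesterol out of the lysosome, read 8.35, 8.30, 8.60 and 8.56 in NME1-K12Q and 8.50, 8.02, 8.12 and 8.36 in Parent. NME1-wild-type had 8.02, 7.95, 8.36 and 8.50, NME1-E5A 8.10, 8.17, 8.21 and 8.33, and NME1-P96S 8.43, 8.54, 7.87 and 8.53. Its highest line mean was in NME1-K12Q, 0.20 above Parent, with overlapping arrays. A second NPC1 row, shared with RMC1, did not show this order. It had 7.19 in NME1-K12Q and 7.24 in Parent, and was highest in NME1-wild-type at 7.28.

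ABCA1, the exporter of cholesterol to apolipoprotein, read 7.17, 7.15, 7.46 and 7.38 in NME1-K12Q and 7.13, 6.89, 6.77 and 7.01 in Parent. NME1-wild-type had 6.56, 6.68, 7.11 and 7.14, NME1-E5A 6.93, 7.13, 7.14 and 7.09, and NME1-P96S 6.96, 7.25, 6.60 and 7.08. The NME1-K12Q arrays lay above those of Parent, NME1-wild-type and NME1-E5A, narrowly in each case. NME1-K12Q minus Parent was 0.34 (95% interval 0.02 to 0.66, limma adjusted p = 1). ABCG1, another exporter, at 5.18 to 5.35, and MYLIP, a ligase that marks lipoprotein receptors for degradation, at 6.29 to 6.43, had narrow ranges of line means. Both exporters are liver X receptor targets, and ABCG1 was highest in Parent.

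A further list of 31 genes of sterol and fatty acid metabolism outside these 32 had 23 measured. Of the 23, 0 changed in any of the 10 comparisons, with 0 to 3 at an unadjusted p under 0.05 in each (limma), where 1.29% to 4.11% of all features had one. NME1-P96S was highest for 5 of the 23, against 17.8% of all features and 22.4% of those with a mean of 7 or more, and their median difference from Parent was 0.06. FADS1, a desaturase of polyunsaturated fatty acids, exceeded Parent by 0.34 in NME1-P96S (limma adjusted p = 0.85) and ELOVL5, an elongase acting beside it, by 0.13 (limma adjusted p = 0.85).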

How the data were processed

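Expression was measured on 20 Affymetrix exon arrays, 4 for each of 5 lines, and line and replicate number were read from the sample titles. The authors deposited 1 log2 value for each row and array, made by RMA in R per the design text. The submitters' processing notes name RMA and limma, with no version. Genome build and software versions are not given in the sources used here. Rows were matched to genes by the platform annotation (18708 rows, 18384 features after 1 row was kept for each gene with a single symbol). All 32 symbols are current in RefSeq (GRCh38.p14), from which the promoter windows also come.

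A limma 3.58.1 model (lmFit and eBayes, R 4.3.3) gave every line its own mean, using all 20 arrays and 18384 features, with 15 residual degrees of freedom. It was tested on simulated data. Members and lists were chosen with earlier results of these data known. Values on every array are given for genes called, and in each role for the 2 with the largest moderated F and the 2 with the highest mean. Other genes are given by line means. From the other lists, called genes and the 2 of highest mean could be named. SOX10, S100B and the pigment genes among the lineage markers were added after their values were seen. Same-numbered arrays of 2 lines correlated in their deviations between -0.85 and 0.81, over 0.1 in 25 of 40 pairs. All 4 were over 0.1 in 2 of the 10 comparisons, NME1-wild-type with Parent (0.11 to 0.40) and with NME1-K12Q (0.23 to 0.51), where the block changed no call. The labels do not say what the numbers share, and the block was an alternative throughout. Alternatives covered scaling, array spread, weights, filters, the replicate block and single arrays left out. The number of arrays limits the precision.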

Additional observations from a re-analysis of the deposited data

Results flagged for a closer look

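In groups of 4 arrays, 4 of 110 values tested had 1 array standing apart from the other 3, where chance gives about 1 in 20. NPC1 read 7.87 on NME1-P96S replicate 3, an array of narrow spread, and 8.43 to 8.54 on the other 3. ACLY read 10.5 on replicate 1 of NME1-E5A and 10.5 on replicate 1 of NME1-K12Q, against 10.8 to 10.9 on the other 3 arrays of each line. The mean of the 5 fatty acid genes was 9.28 on NME1-E5A replicate 1 and 9.52 to 9.57 on the others.

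For DHCR7 the difference from Parent was not the same in all lines. It differed by -0.49 for NME1-wild-type minus NME1-P96S (limma adjusted p = 0.0266) and by -0.57 for NME1-E5A minus NME1-P96S (limma adjusted p = 0.00515). Every NME1-P96S array lay above every Parent array and every NME1-wild-type and NME1-E5A array below, gaps of 0.49 and 0.57 between the line means. For TM7SF2 the difference was -0.58 for NME1-K12Q minus NME1-P96S (limma adjusted p = 0.0415). With 1 line for each construct, a difference between lines and an effect of the construct cannot be told apart.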

How the results depend on the processing

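The count of changed genes was 1 (INSIG2) in NME1-E5A minus Parent and in the F test, and 0 elsewhere. With arrays centred on their medians, NME1-K12Q minus NME1-P96S gave 1 (TM7SF2), which was also the 1 gene of the F test in place of INSIG2. With quantile normalisation NME1-wild-type minus NME1-E5A, NME1-E5A minus NME1-K12Q and NME1-E5A minus NME1-P96S gave 1 each (INSIG2). With the interquartile range as a covariate these 3 gave 1 each, NME1-K12Q minus NME1-P96S 1 and the F test 2. With array weights from 0.11 (NME1-P96S replicate 3) to 3.82 the F test gave 7, NME1-E5A minus NME1-P96S 9, NME1-K12Q minus NME1-P96S 4, and NME1-P96S minus Parent (SC5D), NME1-wild-type minus NME1-E5A and NME1-E5A minus NME1-K12Q 1 each, while calls over all features in NME1-P96S minus Parent went from 19 to 1639. Without a minimum fold the F test gave 2, and NME1-wild-type, NME1-E5A and NME1-K12Q against NME1-P96S 1 each. With only the 8 arrays of a pair, NME1-E5A minus Parent gave 0, and NME1-wild-type minus NME1-E5A and NME1-E5A minus NME1-K12Q 1 each. Without the 3 arrays of narrowest spread, a setting chosen after seeing the data, the F test gave 2, NME1-wild-type minus NME1-E5A 1 and NME1-E5A minus NME1-P96S 6. With 1 array left out at a time, the counts ran from 0 to 2 in the F test and in NME1-E5A minus NME1-P96S, and from 0 to 1 in NME1-E5A minus Parent, NME1-wild-type minus NME1-E5A, NME1-E5A minus NME1-K12Q and NME1-K12Q minus NME1-P96S. The cause of these changes was not tested. No result reversed, and NME1-P96S was highest for 20 to 24 of the 32 genes under the scalings, the interquartile range covariate and the settings without a Parent or NME1-P96S array.

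With replicate number as a block, the numbers being shared without a stated meaning, NME1-wild-type minus NME1-E5A, NME1-E5A minus NME1-K12Q and NME1-E5A minus NME1-P96S gave 1 each (INSIG2), and INSIG2 in NME1-E5A minus Parent had a limma adjusted p of 0.00799. An array correlated best with its own number in 22 of 40 pairings, and 602 of 18384 features had replicate 1 highest in all 5 lines. The HMGCS1 difference between NME1-E5A and NME1-P96S had a limma adjusted p of 0.0861 with the block and 0.544 without, and TM7SF2 in NME1-K12Q minus NME1-P96S 0.0533 with it and 0.0415 without. Another row for INSIG2 could not be tried, since it has 1.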
